A study of Mus musculus with 6 samples.

Results

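The genes described here are 35 protein-coding genes that published work has reported as targets of the microRNA family miR-26. They were taken by name from a fixed list that uses no level as a criterion but was drawn up with earlier results of these data known. All 35 were found among the 36557 rows of the count table. They cover chromatin and DNA demethylation, the cell cycle, BMP and Wnt signalling, RNA silencing and nuclear import, matrix and cell surface enzymes, and metabolism with lipid and calcium signalling.

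The sequenced RNA came from the arch and the thoracic part of the aorta in Apoe-/- mice, which lack apolipoprotein E and form atherosclerotic plaque on fatty food. There were 3 control libraries (Apoe-/-) and 3 knockout libraries (Apoe-/- MiR26b-/-), so both groups lacked Apoe. All animals had eaten a high-fat diet (HFD) for 4 weeks, and their vessels had been rinsed with PBS. The labels give neither age nor the way the MiR26b-/- allele was made, and do not state that each library was a separate animal, so p-values measure the spread between libraries, which may be technical.

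A microRNA guides Argonaute proteins to messenger RNAs through its seed, the bases near its 5′ end, which pair with short sites in the 3′ untranslated region (3′ UTR). Pairing lowers translation and speeds decay of the messenger RNA, usually by a modest amount for any one target. The miR-26 family has been studied for its actions on the histone methyltransferase Ezh2, the TET dioxygenases, BMP signalling through Smad1 in vascular cells, and the cyclin and kinase genes of the G1 phase. Mir26b lies in an intron of the phosphatase gene Ctdsp1, and related genes elsewhere in the genome encode miR-26a.

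The mature RNAs are shown because the knockout removes miR-26b and leaves the genes of its relative in place. They are RefSeq sequences (GRCm38.p6), 5′ to 3′, with the seed, bases 2 to 8, in capitals.
mmu-miR-26b-5p: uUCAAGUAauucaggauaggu
mmu-miR-26a-5p: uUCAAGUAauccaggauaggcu
The mature miR-26b lies at chr1:74394324-74394344 on the plus strand. MiR-26a is encoded at chr9:119031811-119031832 (Mir26a-1) and chr10:126995543-126995564 (Mir26a-2), and both loci give the same 22 bases. The seeds of the 21-base miR-26b and of miR-26a were identical. Counted from the 5′ end, with the miR-26b base first, the shared length differed by U11C and U21C, both outside the seed. The level of neither microRNA was analysed here.

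Seed matches were searched in the longest annotated 3′ UTR of each gene (GENCODE mouse release M21, GRCm38). The search used the transcript strand, and overlapping matches were counted once, as the longest. The motifs were the 8-base TACTTGAA, the 7-base forms TACTTGA (called m8) and ACTTGAA (called A1), and the 6-base ACTTGA. The following sites are shown because they belong to the targets on which the comparison turns, with the match in capitals.
Hmga1, 8-base: ttcttatttgcagtTACTTGAAtaaaaa
Hmga2, 7-base m8: atcttgtagacactTACTTGAtttttt
Adam17, 8-base: gcctgttacactaaTACTTGAAtatata
Arl4c, 8-base: ggcacttcacagttTACTTGAAagaggc
Pitpnc1, 8-base: ctgctgactaccaaTACTTGAAttccag
Fbxo11, 8-base: agcaaatcttattgTACTTGAAtgtgcc
Ezh2, 8-base: atttgaataaagaaTACTTGAActtgtt
Kpna2, 8-base, transcript Kpna2-201: tacaaaagaaactaTACTTGAAcagtta
The Hmga1 match lies at chr17:27563637-27563644 on the plus strand, 1146 bases past the stop codon of a 1183-base UTR. The Hmga2 match shown lies at chr10:120363690-120363696 on the minus strand, 593 bases past the stop codon. Its UTR also holds a 7-base A1 match and a 6-base match, as does that of Pitpnc1. Those of Adam17, at chr12:21323978-21323985, and Arl4c, at chr1:88699485-88699492, are also on the minus strand. The 402-base UTR of Ezh2 holds its match at chr6:47530286-47530293.

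Of the 35 targets, 31 (88.6%) had a match of 7 bases or more in the longest UTR, against 20.9% of the 16134 tested genes with an annotated UTR. An 8-base match was present in 24 targets (68.6%) against 4.82% of tested genes. Part of this gap goes with UTR length, since the median UTR of the targets had 2384 bases and that of all tested genes 1193. Among tested genes with UTRs between the quartiles of the targets (1334 to 4549 bases), 6.94% held an 8-base match and 30.6% a match of 7 bases or more. In all, the 35 UTRs held 30 8-base, 34 7-base and 22 6-base matches. The genes Tet1, Tet3, Cdk6, Zfp462, Ulk1 and Tnrc6b had 2 8-base matches each. Smad1, Kpna2 and Trpc6 had a match of 7 bases or more only in another annotated UTR, and Rcan1 had no match of 7 bases or more in any UTR. Published reports of targets may themselves have started from such matches, so the gap describes the list and does not test it. A match is a run of letters, not a site shown to be bound.

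**Figure D1:**
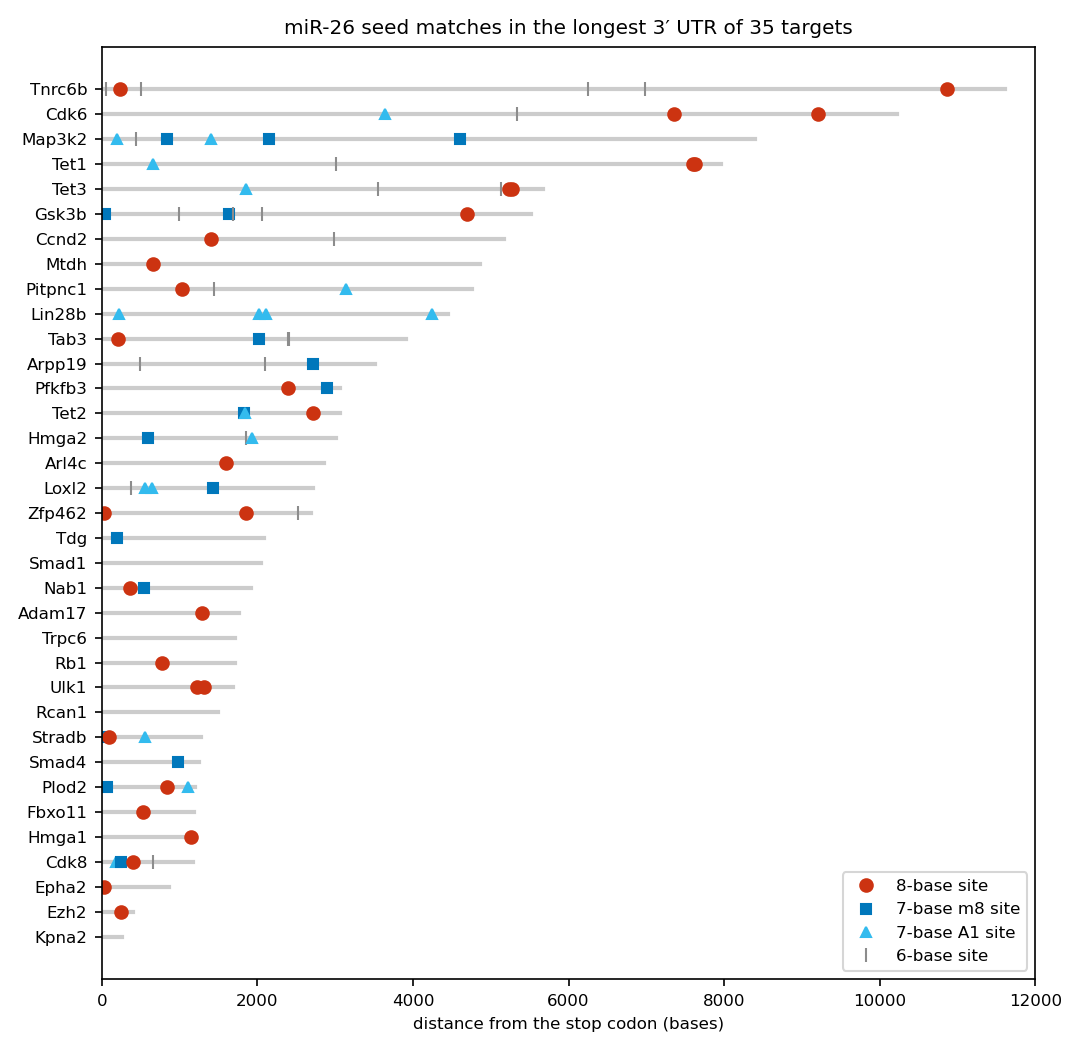
Seed matches along the longest 3′ UTR of the 35 targets, ordered by UTR length; the x axis is distance from the stop codon in bases, grey bars are the UTRs, and symbols mark the kind of match. The UTRs run from 264 bases in Kpna2 to 11609 bases in Tnrc6b, and 24 of the 35 carry at least 1 red 8-base match.

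The question was whether transcripts of these targets stood higher in aortas without miR-26b. Levels are given as CPM, the usual depth-scaled unit, here over the TMM-scaled library total, and differences as log2 of knockout over control with the standard error (SE). A gene is said to have risen or fallen where edgeR's quasi-likelihood test gave a Benjamini-Hochberg adjusted p under 0.05 over all 17392 genes tested. The tissue is a mixture, so fewer cells of a type and less RNA per cell cannot be told apart in any value below.

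Of the 35 targets, 34 had enough counts to be tested, 3 rose and 0 fell. The risers were the chromatin architecture genes Hmga1 and Hmga2 and the sheddase gene Adam17. Over all tested genes, 10.3% were called in either direction, 6.5% as higher and 3.84% as lower, so the 8.82% of targets that rose was near the background. At an unadjusted p under 0.05 there were 11 of 34 targets (32.4%), 6 above and 5 below the controls, beside 30.7% of all genes. DESeq2 called 5 higher (these 3, Arl4c and Pitpnc1; 14.7%) and 3 lower targets (Fbxo11, Map3k2 and Mtdh; 8.82%), beside 12.7% and 7.98% of the 16439 genes it tested. Limma-voom called 0 of 34 targets, with 12 at an unadjusted p under 0.05. Of 17392 genes it called 1073, with 5297 at an unadjusted p under 0.05. The median log2 difference of the 34 was 0.02, against 0.00 over all tested genes; 19 lay above 0 and 15 below. For 25 targets (73.5%) the difference was smaller than 0.25 on the log2 scale, as it was for 61.6% of all genes.

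In CPM, groups did not overlap for 15 of the 34 targets (44.1%), beside 36.1% of all tested genes. In 7 of these (20.6%; background 18.9%) every knockout library lay above every control: Hmga1, Hmga2, Tet3, Cdk6, Adam17, Arl4c and Pitpnc1. In 8 (23.5%, background 17.2%) every knockout library lay below: Gsk3b, Map3k2, Smad1, Smad4, Fbxo11, Mtdh, Tnrc6b and Kpna2. On the authors' rescaled TPM scale, which allows for transcript length, Cdk6, Smad1, Fbxo11 and Tnrc6b overlapped. For Gsk3b the highest knockout and the lowest control were both 17.3 there. Arpp19, Epha2 and Tet2 were higher in every knockout on that scale, and Stradb lower.

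**Figure D2:**
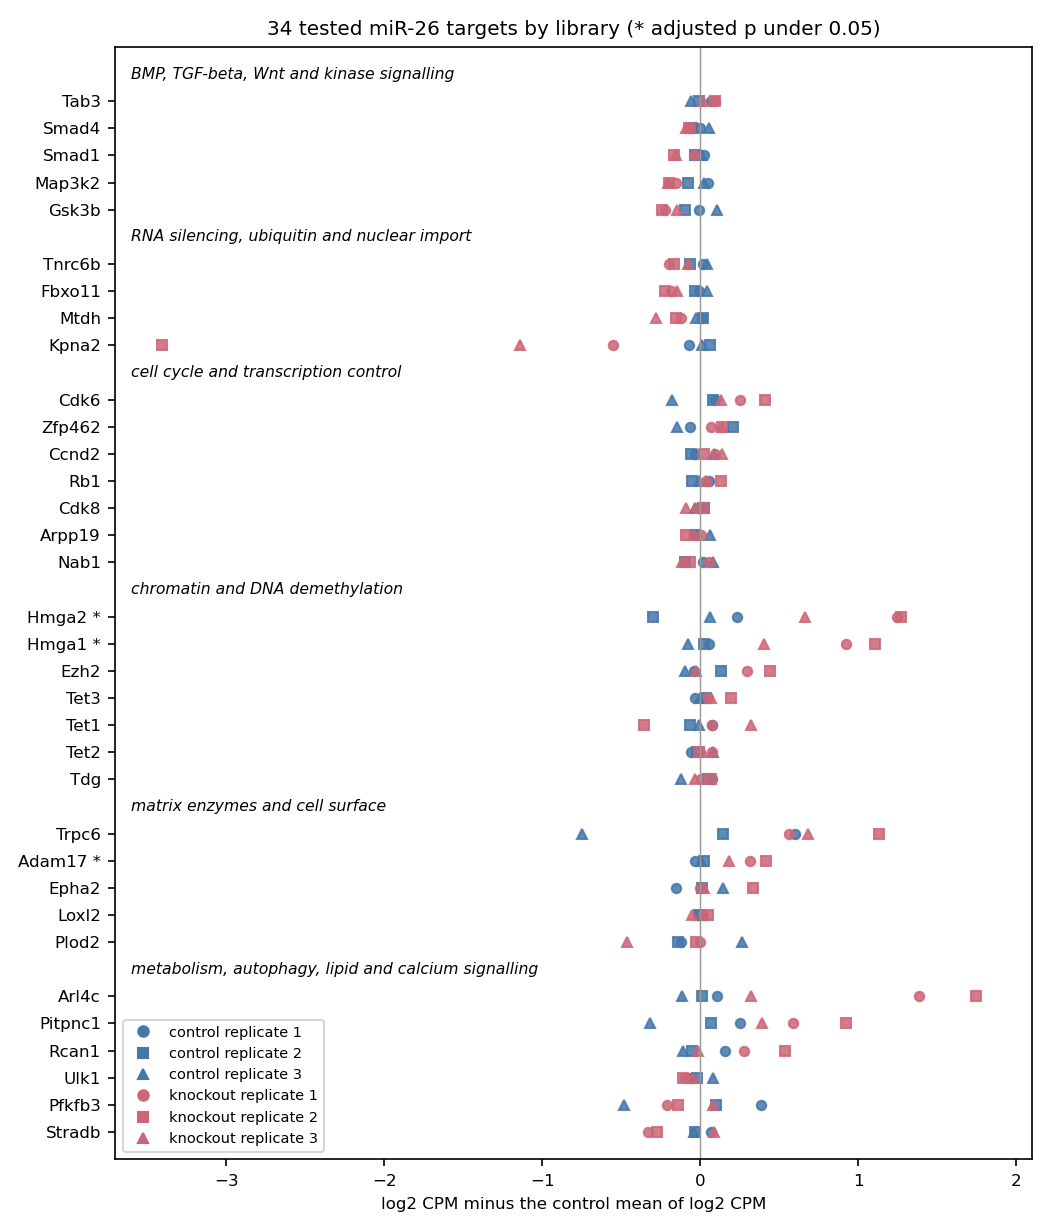
Each row is 1 of the 34 tested targets, grouped by function; the x axis is log2 CPM of a library minus the control mean of log2 CPM, blue for controls and red for knockouts, with a symbol for the replicate number. Most points lie within 0.25 of 0; Hmga1, Hmga2, Arl4c and Pitpnc1 spread to the right, with knockout replicate 3 nearest the controls, and Kpna2 spreads to the left.

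Library composition differed along with genotype and is given once here. Knockout replicate 3 stood at 0.97 on the first principal component (61.9% of variance), between the controls (-45.35 to -25.42) and the other knockouts (47.05 and 55.72). Summed CPM of 12 macrophage markers was 768 to 983 in controls and 5090, 5770 and 1850 in knockout replicates 1, 2 and 3; 11 of the 12 rose, 1 fell, and none was at 0. Fibroblast markers summed to between 4040 and 4630 CPM in controls and to 6800, 7260 and 5460 in the knockouts, with 7 of 7 differences above 0 and 3 called higher. The 10 smooth muscle markers summed to between 32800 and 37800 CPM in controls and between 22100 and 26400 in knockouts, with all 10 differences below 0, 9 without overlap of groups, and 5 called. All 15 proliferation markers had differences above 0, 12 without overlap of groups, 14 at an unadjusted p under 0.05 and 1 called; their sums were 104 to 130 CPM in controls and 183, 204 and 140 in the knockouts. Of 7 endothelial markers 2 were called higher, with overlapping sums of 1620 to 2050 and 1760 to 1970 CPM. Control replicate 2 stood apart in its B cell markers, at 461 CPM against 30.8 to 40.6 in the other 5 libraries. T cell markers summed to 7.3 to 18.9 CPM in controls and 22.4, 30.3 and 12.4 in the knockouts, and neutrophil markers to 4.24 to 9.89 and 31.4, 44.6 and 9.83. Brown fat markers summed to between 293 and 1040 CPM in controls and between 181 and 731 in knockouts, with 0 of 7 called and 1 at an unadjusted p under 0.05, and white adipocyte markers to 1210 to 2260 and 775 to 1980. The part of these cell populations in the results on the targets was not tested.

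Among the 7 chromatin and DNA demethylation genes, all 7 differences were above 0, as were 8590 of all 17392 genes. EdgeR called 2 (28.6%) as higher, beside 6.5% of all genes. The differences of Tdg, Tet2 and Tet1 were 0.01, 0.03 and 0.04, and each changed sign under some alternative. Hmga1 encodes an AT-hook protein that bends DNA and opens chromatin, and is most active in dividing and transformed cells. Its levels were 20.2, 19.8 and 18.4 CPM in control replicates 1, 2 and 3 and 36.8, 41.9 and 25.8 CPM in the knockouts. The 3 knockouts lay above all controls, and replicate 3 was the lowest of them. Hmga1 rose 1.79-fold, a log2 difference of 0.84 (SE 0.17) with an edgeR adjusted p of 0.0366. Its near-identical gene copy Hmga1b (99.8% identity over 1602 bases) took at most 0.233% of their joint counts in any library.

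Hmga2, the related gene that is normally expressed in embryonic mesenchyme, was the scarcest of the tested targets per unit of length. It stood at 0.643, 0.442 and 0.571 CPM in controls and 1.31, 1.33 and 0.871 CPM in knockouts, again without overlap and with knockout replicate 3 lowest. Hmga2 rose 2.12-fold (log2 1.08, SE 0.25, edgeR adjusted p 0.0456). Without a low-count filter the edgeR adjusted p was 0.0539, and on the log2(rescaled TPM + 1) scale, which compresses low levels, the difference was 0.29 and did not pass in limma (adjusted p 0.0698).

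Ezh2, the histone H3 lysine 27 methyltransferase of the Polycomb complex PRC2, was at 9.77, 11.0 and 9.38 CPM in controls and 12.3, 13.6 and 9.85 CPM in knockouts. The groups overlapped through knockout replicate 3, and the difference of 0.24 (SE 0.14, edgeR adjusted p 0.286) did not pass. Without that library it was 0.36 and passed, with an edgeR adjusted p of 0.0437, where 17.2% of all genes were called higher. Ezh2 was called under no other alternative, and its difference went down to 0.13 among them. Of the 12 tested genes for its PRC2 partners and their counterparts, 0 were called by edgeR. Differences lay below 0 for 8 of the 12, as for 8797 of all 17392 genes. At an unadjusted edgeR p under 0.05 there were 6, all lower, beside 13.2% of all genes lower at that p.

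The TET dioxygenases oxidize 5-methylcytosine and Tdg excises the oxidized base. Tet2 was at 40.1, 41.2 and 44.2 CPM in controls and 44.0, 41.5 and 42.3 CPM in knockouts, a difference of 0.03 (SE 0.06). Tet1 stood at 14.3, 13.0 and 13.5 against 14.3, 10.6 and 17.0 CPM, 0.04 on the log2 scale with the wide SE of 0.17. Both genes overlapped between groups in CPM. On the rescaled TPM scale Tet2 did not, at 12.3, 12.8 and 13.3 in controls and 13.9, 14.3 and 14.1 in knockouts. Tet3 was at 63.6, 66.6 and 65.0 CPM in controls and 67.3, 74.5 and 68.3 CPM in knockouts, without overlap, but its difference of 0.11 (SE 0.06) had an edgeR adjusted p of 0.254. Tdg was at 34.1, 33.6 and 29.8 against 32.6, 34 and 31.7 CPM, a difference of 0.01 (SE 0.07). EdgeR called 0 of these 4 demethylation targets, with none at an unadjusted p under 0.05. Of the 14 other genes of DNA methylation and demethylation 1 rose (7.14%, beside 6.5% of all genes). It was Apobec1, a cytidine deaminase, from 15.2 ± 1.33 to 49.5 ± 20.0 CPM (SD, n = 3, edgeR adjusted p 0.0322).

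The 7 cell cycle and transcription targets had differences between -0.04 and 0.27, and 0 of 7 were called by edgeR, with Cdk6 at an unadjusted p under 0.05. Cdk6, a kinase that drives cells through G1, showed the largest of these. It was at 36.1, 35.9 and 30 CPM in controls and 40.4, 45.1 and 37.2 CPM in knockouts. Every knockout lay above every control, but the edgeR adjusted p of the difference (0.27, SE 0.10) was 0.134. On the rescaled TPM scale the groups overlapped, at 6.07, 6.19 and 5.14 against 6.49, 6.52 and 5.35, and the limma difference of log2(value + 1) was 0.07 (adjusted p 0.75). Ccnd2, the cyclin D2 partner of Cdk6, was among the most abundant targets at 308, 303 and 334 CPM in controls and 336, 320 and 346 CPM in knockouts. Its groups overlapped, and the difference was 0.08 (SE 0.06, edgeR adjusted p 0.412). Rb1, the retinoblastoma pocket protein that these kinases inactivate, was at 36.7, 34.1 and 35.1 against 36.2, 38.6 and 36.2 CPM, a difference of 0.07 (SE 0.05).

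The other 4 genes of this group all overlapped between groups in CPM. On the rescaled TPM scale Arpp19 did not, at 132, 138 and 141 in controls and 152, 153 and 150 in knockouts. They were Cdk8, the kinase of the Mediator complex (-0.03), Nab1, a corepressor of EGR factors (-0.04), Arpp19, an inhibitor of the phosphatase PP2A in mitosis (-0.04), and the zinc finger gene Zfp462 (0.11). The signs of Cdk8, Nab1 and Arpp19 carry no weight, since all 3 lay above 0 when only library size was used for scaling. Of 17 other G1 cyclin, kinase and pocket protein genes, 2 rose (11.8%, beside 6.5% of all genes). Ccnd1 (cyclin D1) went from 21.9 ± 4.08 to 42.8 ± 6.89 CPM (SD, n = 3; log2 0.97, edgeR adjusted p 0.0304). Cdkn1a, the p21 kinase inhibitor, went from 40.3 ± 3.06 to 61.4 ± 5.79 CPM (SD, n = 3; log2 0.61, edgeR adjusted p 0.024). In the Mediator kinase module, Med13 fell by 0.22 on the log2 scale (edgeR adjusted p 0.0491), and the other 5 genes were not called. This was 16.7% of the module, beside 3.84% of all genes called lower.

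The 5 signalling targets had small differences, 4 of them below 0, and 0 were called by edgeR. At an unadjusted edgeR p under 0.05 there were 2, Gsk3b and Map3k2. These were lower, as were 13.2% of all genes at that p. Smad1 transmits BMP signals to the nucleus. It was at 31.2, 30 and 31 CPM in controls and 29.9, 27.4 and 27.6 CPM in knockouts, a difference of -0.12 (SE 0.06, edgeR adjusted p 0.205). Its partner Smad4, shared by the BMP and TGF-beta branches, was at 64.2, 62.0 and 66.9 against 61.4, 61.2 and 60.4 CPM, a difference of -0.08 (SE 0.05, edgeR adjusted p 0.317). In both genes every knockout library lay under every control in CPM, by little. On the rescaled TPM scale Smad1 overlapped between groups and Smad4 did not.

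Gsk3b, the kinase that marks beta-catenin for destruction, was at 94.3, 88.8 and 102 CPM in controls and 81.3, 80.1 and 85.7 CPM in knockouts. The groups did not overlap, and the difference was -0.20 (SE 0.06, edgeR adjusted p 0.0884). Map3k2, a kinase upstream of MEK5, was at 59.3, 54.2 and 58.3 against 51.5, 49.9 and 49.6 CPM, also without overlap (-0.19, SE 0.05, edgeR adjusted p 0.066). Tab3, an adaptor of the kinase TAK1, differed by 0.07 and overlapped. Among 20 other Smad, receptor and inhibitor genes 1 rose and 1 fell (5.0% each, beside 6.5% and 3.84% of all genes). The type I receptor gene Acvrl1 went from 80.6 ± 3.14 to 102 ± 9.44 CPM (SD, n = 3; edgeR adjusted p 0.0457), and Bmpr1b went from 31.0 ± 2.12 to 17.8 ± 2.79 CPM (SD, n = 3; edgeR adjusted p 0.0245). Of 10 TAK1 and MEK5 pathway genes and 9 Gsk3 and beta-catenin genes, 0 were called by edgeR. At an unadjusted edgeR p under 0.05 there were 2 (1 higher, 1 lower) and 3 (all lower), in this order. Of all genes, 17.5% were higher and 13.2% lower at that p.

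The targets of RNA silencing, ubiquitin ligation and nuclear import had 4 of 4 tested differences below 0, as had 8797 of all 17392 genes. EdgeR called 0 of them, and 3 had an unadjusted p under 0.05, beside 13.2% of all genes lower at that p. The fourth, Kpna2, turned to 0.07 when counts of its near-identical copy were added, as described below. Fbxo11, the substrate receptor of a ubiquitin ligase, came nearest to the threshold. It was at 91.4, 90.1 and 94.7 CPM in controls and 81.0, 78.8 and 83.2 CPM in knockouts, a difference of -0.18 (SE 0.05, edgeR adjusted p 0.0557). Mtdh, a membrane-associated RNA-binding protein gene, was at 171, 172 and 167 against 156, 153 and 140 CPM (-0.19, SE 0.06, edgeR adjusted p 0.083). In neither gene did the groups overlap in CPM. On the rescaled TPM scale Fbxo11 overlapped, at 44.8, 41.9 and 44.1 in controls and 40.2, 38.8 and 42.9 in knockouts, and Mtdh did not.

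Tnrc6b encodes a GW182 scaffold of the microRNA silencing complex itself. It was at 81.8, 77.2 and 83.4 CPM in controls and 70.4, 72.0 and 76.7 CPM in knockouts. All knockouts were lower in CPM, the difference was -0.15 (SE 0.06), and the edgeR adjusted p was 0.14. On the rescaled TPM scale the groups overlapped, at 8.27, 8.03 and 8.21 in controls and 7.44, 7.83 and 8.35 in knockouts. Ago2, the slicing Argonaute that binds Tnrc6 proteins, fell from 130 ± 6.23 to 107 ± 1.07 CPM (SD, n = 3, log2 -0.28, edgeR adjusted p 0.0328). It was the 1 call among 13 tested genes of the silencing machinery (7.69%, beside 3.84% of all genes called lower). Among 7 other importin genes, Ipo7 fell by 0.24 on the log2 scale (edgeR adjusted p 0.0452), which is 14.3% of them beside 3.84% of all genes. Lin28b, the repressor of let-7 maturation, had 4.8, 7.3 and 7.7 estimated counts in controls and 2.2, 2.8 and 5.1 in knockouts, too few for a test.

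Kpna2, an importin alpha that carries proteins into the nucleus, gave the largest difference below 0 among the targets. It was at 29.8, 32.7 and 31.5 CPM in controls and 21.4, 2.94 and 14.2 CPM in knockouts (-1.28, SE 0.59, edgeR adjusted p 0.201). The knockout libraries were all lower, and they spread far more widely than the controls did. A near-identical copy, Gm10184 (ENSMUSG00000066878, chr17:89908462-89910449, minus strand, 99.9% identity over 1968 bases), showed the reverse. Kpna2 had 1573.7, 1703 and 1656.8 estimated counts in controls and 1145.2, 154.8 and 750.9 in knockouts.

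Gm10184 had 0, 0 and 6.6 estimated counts in controls and 857.1, 1736.3 and 627 in knockouts, and was called higher (edgeR adjusted p 0.01). Its share of the joint counts was 0%, 0% and 0.397% in controls and 42.8%, 91.8% and 45.5% in knockouts. The 95% Wilson intervals were 40.7 to 45.0, 90.5 to 93.0 and 42.9 to 48.1 for the knockouts and cover counting error only. The controls at 0 allow shares of up to 0.191% and 0.176% (3 counts of the total). The joint level was 31.4 ± 1.46 CPM in controls and 33.1 ± 6.14 CPM in knockouts (SD, n = 3). With such copies added to their gene, a step chosen after the data were seen, the Kpna2 difference was 0.07 (edgeR adjusted p 0.75). The single Gm10184 UTR also holds an 8-base match. Splitting of reads by the counting, strain differences in sequence and expression of the copy itself cannot be told apart in gene-level counts, so the separate levels of the gene and the copy are uncertain.

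**Figure D3:**
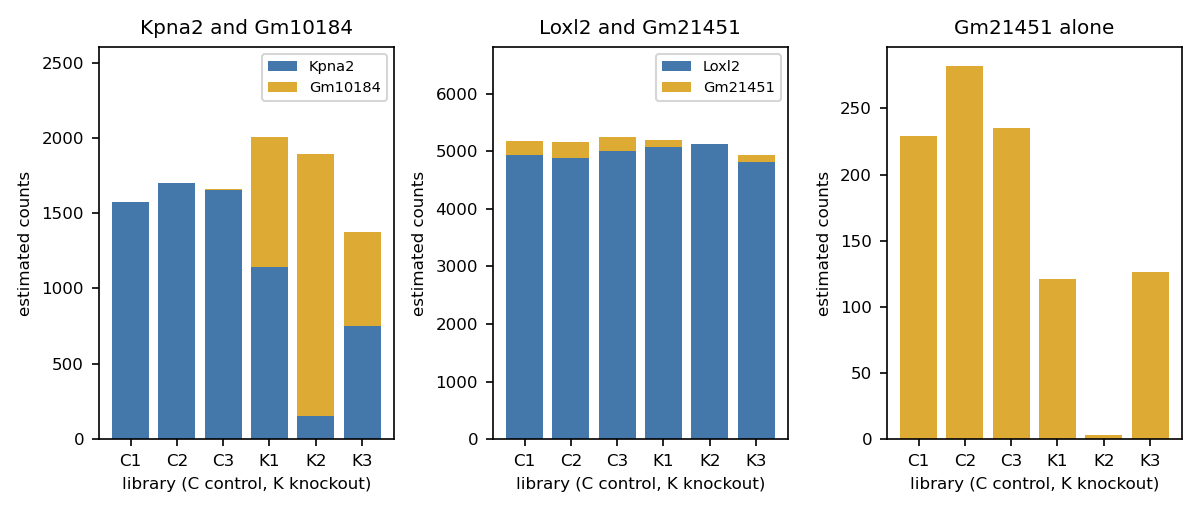
Estimated counts per library of Kpna2 with its copy Gm10184 (left), Loxl2 with its copy Gm21451 (centre) and Gm21451 on its own scale (right); bars are single libraries, C1 to C3 controls and K1 to K3 knockouts. Gm10184 takes 42.8%, 91.8% and 45.5% of the joint counts in the knockouts and at most 0.397% in a control, and Gm21451 is lower in every knockout than in every control.

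Of the 5 matrix and cell surface targets, 1 rose (20.0%, beside 6.5% of all genes). Adam17 encodes the protease that releases TNF, TNF receptors and EGF receptor ligands from the cell surface. It was at 61.9, 64.3 and 63.6 CPM in controls and 78.8, 84.6 and 71.9 CPM in knockouts. The controls were tight, all knockouts lay above them, and knockout replicate 3 was again the lowest. Adam17 rose 1.24-fold (log2 0.31, SE 0.07, edgeR adjusted p 0.0411). Of its 8 partners and relatives 3 rose (37.5%, beside 6.5% of all genes), in a list chosen with earlier results known. Frmd8, a cofactor that stabilizes the Adam17 complex, went from 22.7 ± 0.716 to 30.4 ± 3.08 CPM. Adam10 went from 113 ± 4.66 to 141 ± 11.8 CPM, and the leukocyte protease gene Adam8 from 5.46 ± 2.05 to 45.8 ± 28.5 CPM. The spreads are SD with n = 3, and the edgeR adjusted p were 0.0355, 0.0466 and 0.0355 in this order. The Adam17 carriers Rhbdf1 and Rhbdf2 had differences of -0.08 and 0.13 and were not called, nor was its inhibitor Timp3 (-0.21, edgeR adjusted p 0.138).

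Loxl2, a lysyl oxidase that cross-links collagen, was at 93.4, 93.8 and 95.2 CPM in controls and 95.1, 97.3 and 91.0 CPM in knockouts. The difference was 0.00 (SE 0.05), the smallest of any target. Its copy Gm21451 (chr14:69390854-69480287, 100% identity over 2348 bases) took 4.43%, 5.47% and 4.49% of the joint counts in controls and 2.33%, 0.0585% and 2.56% in knockouts. With the copies added, the Loxl2 difference was -0.04 (edgeR adjusted p 0.565). Plod2, a collagen lysyl hydroxylase, differed by -0.16 (SE 0.16) and the ephrin receptor gene Epha2 by 0.12. The cation channel gene Trpc6 differed by 0.72 (SE 0.36, edgeR adjusted p 0.23). All of these overlapped between groups in CPM. On the rescaled TPM scale Epha2 did not, at 7.37, 8.85 and 9.28 in controls and 10.3, 11.7 and 10.2 in knockouts. Among related genes, the collagen prolyl hydroxylase P4ha2 fell by 0.34 and the channel gene Trpc1 by 0.37 on the log2 scale, while the Epha2 ligand gene Efna1 rose by 0.68 (edgeR adjusted p 0.03, 0.0305 and 0.0437).

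Among the 6 targets of metabolism, autophagy, lipid and calcium signalling 0 were called by edgeR and 2 had an unadjusted p under 0.05, Arl4c and Pitpnc1. These 2 were higher, as were 17.5% of all genes at that p. Arl4c had the highest difference of all 34. Arl4c, a small GTPase of the ARF family linked to cell migration and cholesterol export, was at 20.5, 19.2 and 17.6 CPM in controls and 49.9, 63.9 and 23.8 CPM in knockouts. Knockout replicates 1 and 2 stood far above the controls and replicate 3 just above them. The difference of 1.26 (SE 0.33) had an edgeR adjusted p of 0.0583, and without knockout replicate 3 it was 1.57 with an edgeR adjusted p of 0.000548. Arl4c lies 14.3 Mb from Mir26b on chromosome 1, Stradb 15.4 Mb and Nab1 21.9 Mb. The labels name no strain, so flanking alleles carried with the knockout allele and loss of Mir26b cannot be told apart for these 3 genes. Strain differences elsewhere in the genome were not tested, so the other targets are not shown to be free of them.

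Pitpnc1, a phosphatidylinositol transfer protein gene, was at 14.8, 13.0 and 9.95 CPM in controls and 18.7, 23.5 and 16.3 CPM in knockouts. All knockouts were higher, by 0.63 (SE 0.19), with an edgeR adjusted p of 0.0761. In Hmga1, Hmga2, Adam17, Arl4c and Pitpnc1 alike, knockout replicate 2 was the highest library and knockout replicate 3 the lowest of its group. In Hmga2 knockout replicates 1 and 2 were close (1.31 and 1.33 CPM). The order was also seen in the summed macrophage, fibroblast, proliferation, T cell and neutrophil markers. Ezh2, Cdk6, Rcan1 and Loxl2, which edgeR did not call, showed it too, so it was not particular to the targets with the largest differences. Its share over all genes was not counted.

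The other 4 genes of this group overlapped between groups in CPM. Rcan1, an inhibitor of calcineurin, differed by 0.28 (SE 0.14, edgeR adjusted p 0.246), and Pfkfb3, which makes the activator of phosphofructokinase, by -0.12 (SE 0.21), with controls from 86.7 to 158 CPM. The autophagy kinase gene Ulk1 differed by -0.09 and the LKB1 cofactor gene Stradb by -0.16. On the rescaled TPM scale Stradb did not overlap, at 18.4, 20 and 20.8 in controls and 15.8, 15.6 and 17.8 in knockouts. Of 7 related genes of phosphofructokinase control, Pfkfb4 rose from 12.1 ± 1.26 to 19.4 ± 2.85 CPM (SD, n = 3, edgeR adjusted p 0.0345). It was the 1 call of the 7 (14.3%, beside 6.5% of all genes called higher). Of 11 genes of the ULK and AMPK complexes 0 were called by edgeR, and 3 had an unadjusted p under 0.05. These 3 were lower, beside 13.2% of all genes lower at that p. Over all 15 partner lists, 9 of 167 tested genes rose (5.39%) and 6 fell (3.59%), near the 6.5% and 3.84% of all genes.

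The 3 calls depended on which libraries were used. With control replicate 1, 2 or 3, or knockout replicate 1 or 2, left out, 0 targets were called by edgeR. Between 9 and 11 of the 34 targets then had an unadjusted p under 0.05. Over all genes it was between 3710 and 4627, of 17638 to 17760 tested. Without knockout replicate 3, 7 rose (Hmga1, Hmga2, Adam17, Arl4c, Pitpnc1, Ezh2 and Rcan1) and 4 fell (Fbxo11, Gsk3b, Stradb and Tnrc6b). These 20.6% and 11.8% of the targets stood beside 17.2% and 11.4% of all 17720 genes tested without that library, while the other omissions left between 0 and 71 genes called in all. The log2 difference stayed between 0.68 and 1.01 for Hmga1, 0.94 and 1.25 for Hmga2 and 0.25 and 0.37 for Adam17 as each library was left out.

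Differences were also set beside the seed matches, as a description. The 24 targets with an 8-base match had a median log2 difference of 0.05, against -0.02 for all 778 tested genes with such a match, and 2 of the 24 were called higher. Among those 778 genes 5.4% were higher and 4.88% lower, while among the 10396 genes with no match 7.11% were higher and 3.35% lower. The 6 tested targets whose longest match had 7 bases had a median of -0.02, with Hmga2 as the 1 call. The 4 targets with no match in the longest UTR, Smad1, Kpna2, Trpc6 and Rcan1, had a median of 0.08 and no call. Of these only Rcan1 lacked a match of 7 bases or more in every annotated UTR, and the Kpna2 level is uncertain. Targets with 2 8-base matches ranged from -0.15 (Tnrc6b) to 0.27 (Cdk6), and none of the 6 was called.

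**Figure D4:**
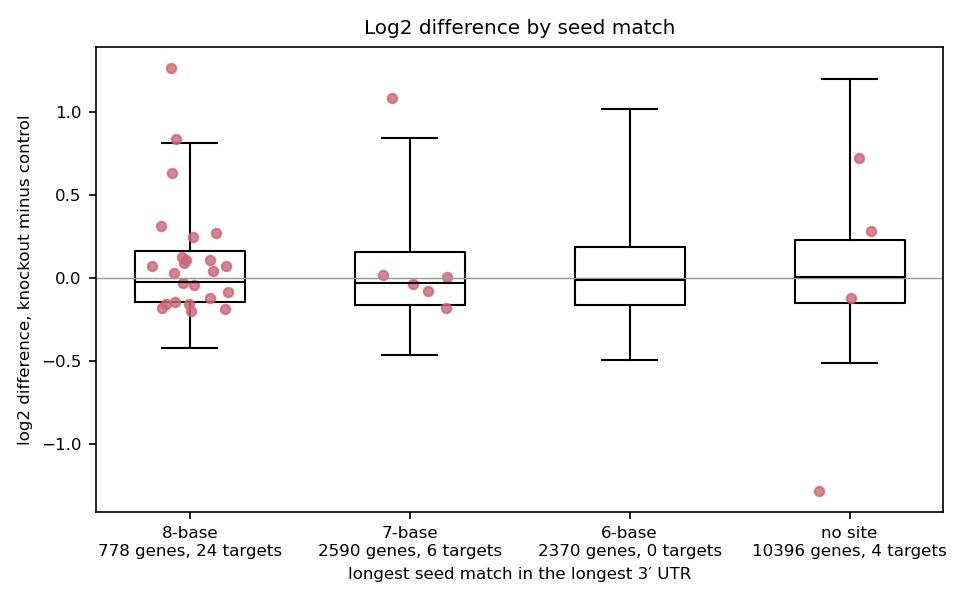
Log2 difference (knockout minus control, y axis) by the longest seed match in the longest 3′ UTR; boxes show the quartiles and median of all tested genes, whiskers the 5th and 95th percentiles, and red points the targets. The boxes centre close to 0 in every class, and the 24 targets with an 8-base match have a median of 0.05.

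Per unit of transcript length, the targets covered a wide range. On the authors' rescaled TPM scale Arpp19 was the most abundant, at 137 ± 4.42 in controls and 152 ± 1.55 in knockouts (SD, n = 3). Plod2 (95.9 ± 15.1), Mtdh (84.5 ± 1.76) and Ccnd2 (81.7 ± 4.47) followed in controls. The control values of Mtdh and Ccnd2 overlapped, and those of Arpp19 stood apart. The lowest control value of Plod2 (87) was only just above the highest of Ccnd2 (86.7). Ezh2 was at 11.7 ± 1.29, Cdk6 at 5.80 ± 0.575 and Tet1 at 1.75 ± 0.241. The lowest were Trpc6 (0.354 ± 0.145), Hmga2 (0.234 ± 0.0448) and Lin28b (0.0389 ± 0.00706). Arl4c moved from 7.5 ± 0.607 to 18.4 ± 8.21 and Hmga1 from 23.1 ± 0.969 to 41 ± 9.86 on this scale.

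**Figure D5:**
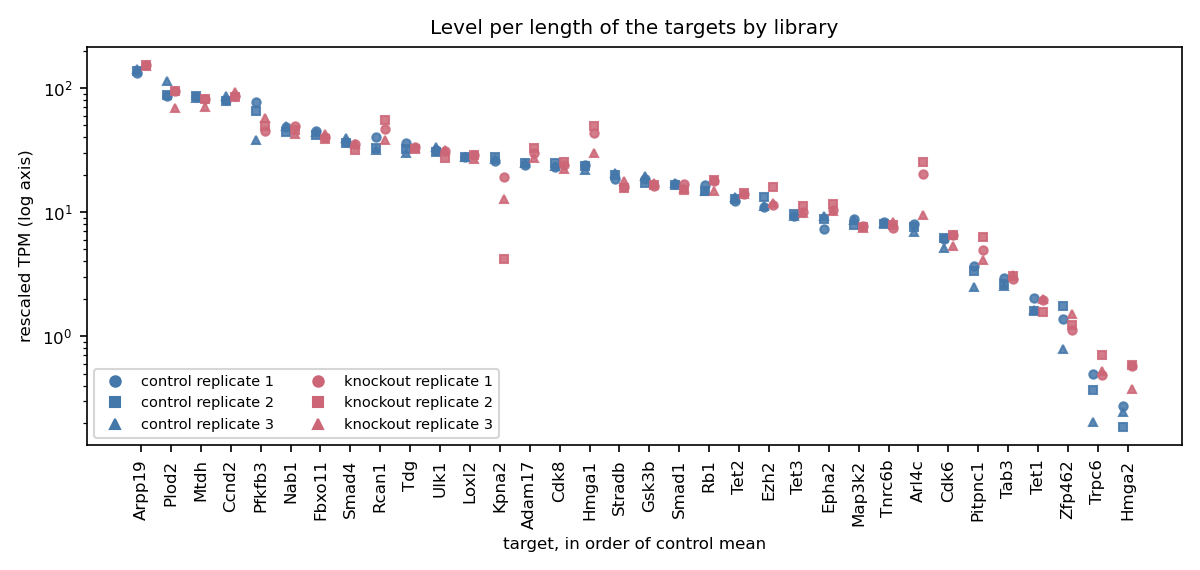
Rescaled TPM (log axis) of 34 targets in each library, ordered by control mean; blue symbols are controls and red symbols knockouts, and Lin28b (0.0389 in controls) is left out as too low. Levels fall from 137 for Arpp19 to 0.234 for Hmga2 in controls, and the red points of Hmga1, Arl4c, Pitpnc1 and Hmga2 stand above the blue ones.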

How the data were processed

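The submitters' processing notes name kallisto 0.46.2, FastQC 0.11.8, the trimmer Trim Galore 0.6.5 and the build GRCm38. kallisto assigns reads to transcripts and shares a read between similar ones. The deposited estimated counts are not whole: within each library the commonest low value was a constant between 0.9004 and 1.0685, and they were rounded here. The second table deposited by the authors holds TPM rescaled between libraries (columns sum to between 955527 and 1034723) and was treated as a signal, where plain TPM had been planned for.

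Counts (51634139 to 54817547 per library) passed through filterByExpr at a minimum count of 10, were given TMM factors, and were tested with edgeR 4.0.16 in R 4.3.3, 3 libraries against 3, after the fit was tested on simulated counts. The SE is the log2 difference over the root of F. The alternatives used DESeq2 1.42.0, limma 3.58.1, other scaling and filters, a replicate block, a fat marker covariate, each library left out, and gene copies added.

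The members, function groups and partner lists were chosen with earlier results of these data known. Values per library were given for called targets, for 12 well studied ones, and for others with an unadjusted p under 0.05 and no overlap of groups. Of each partner list the called genes were named, at most 3. Kpna2, Lin28b and the copies were taken up after their values were seen. Copies were transcripts of another gene with at least 95% identity over at least 300 bases and 50% of their length.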

Additional observations from a re-analysis of the deposited data

How the results depend on the processing

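With 3 libraries a group, leaving out a library moved every count. The targets called higher ranged from 0 to 7 and those called lower from 0 to 4; all genes called higher ranged from 0 to 3051 and lower from 0 to 2028; the targets' median log2 difference ranged from -0.0032 to 0.0528. The largest counts were without knockout replicate 3. Without control replicate 1 or control replicate 3 edgeR called 0 genes in all, with 4056 at an unadjusted p under 0.05 each time.

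Targets called higher were 5 with DESeq2 and 0 with limma-voom, with limma on log2(TPM + 1) or log2(TPM + 0.1), and with the fat marker covariate. Targets called lower were 3 with DESeq2 and 1 (Fbxo11) where a mean log2 CPM of at least 1 was required, which left Hmga2 untested. All genes called higher and lower were 2083 and 1312 with DESeq2, 461 and 251 on log2(TPM + 1), 641 and 301 on log2(TPM + 0.1), and 73 and 53 with the fat covariate; limma-voom called 559 higher. The targets' median was 0.0637 with library size alone, 0.0322 and 0.0522 on the TPM scales, 0.0479 with the fat covariate and 0.0319 with copies added. The cause of these shifts was not tested. Library size alone moved the median of all genes to 0.04, and Hmga1, Hmga2 and Adam17 were called under each of the scalings tried.

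Reversed signs were found only for targets that were not called. Loxl2 was at -0.002 with median-of-ratios factors and with DESeq2, -0.0058 with upper quartile factors, -0.0239 with the fat covariate, -0.0421 with copies added, -0.0009 without control replicate 2 and -0.0163 without knockout replicate 2. With library size alone Nab1, Arpp19 and Cdk8 were at 0.0005, 0.0027 and 0.0127. On log2(TPM + 1) and log2(TPM + 0.1), Arpp19 was at 0.1453 and 0.1462 and Cdk8 at 0.001 on both. With the fat covariate Pfkfb3 was at 0.1872 and Tet2 at -0.0172. With copies added Kpna2 was at 0.0736. As libraries were left out, Pfkfb3 ranged from -0.3305 to 0.0844, Tdg from -0.0455 to 0.0524, Tet1 from -0.1281 to 0.2028 and Loxl2 from -0.0163 to 0.0298.

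Replicate numbers were shared between groups, but same-numbered libraries deviated together weakly (correlations -0.09, 0.23 and 0.08), so a pairing was not shown. With 3 libraries a group the deviations are tied to each other, so these correlations cannot exclude a pairing either. The fit with the replicate block called 1995 genes and, of the targets, Hmga1 (0.81, adjusted p 0.0329) and Pitpnc1 (0.63, adjusted p 0.0481); Adam17 (0.31) and Hmga2 (1.07) then had adjusted p of 0.0558 and 0.0733. Not every library correlated best with its own number. The number of targets with a match was 24 for 8-base matches alone and 34 over any annotated UTR, against 31. The largest SE among the tested targets were those of Kpna2 (0.59), Trpc6 (0.36) and Arl4c (0.33); depth limits Lin28b, which had too few counts to test.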

Other observations

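The ratio of the deposited estimated count to the rescaled TPM of a gene follows the mean effective length of the transcripts to which its reads were assigned. This ratio was compared between groups with limma over 16312 genes after the data were seen. No gene passed (0 calls), and 1601 genes (9.81%) had an unadjusted p under 0.05, as did 6 of the 34 targets. For Cdk6 the log2 ratio relative to the control mean was 0.12, 0.26 and 0.26 in the knockouts, against 0.02, -0.02 and 0.00 in the controls (adjusted p 0.32). For Arpp19 it was -0.11, -0.23 and -0.15, and for Epha2 -0.26, -0.12 and -0.22 in the knockouts (adjusted p 0.347 and 0.344). These 3 genes were picked after their values were seen.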
